A study of Mus musculus with 5 samples.

Results

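The genes described here are mouse Hgf, the 2 receptors of the MET family (Met and Mst1r), the proteases and inhibitors that set how much HGF is activated (Hgfac, St14, Hpn, Spint1 and Spint2), and the urokinase pair Plau and Plaur. They were chosen by symbol, and all 10 had a row among the 24527 genes of the deposited count table. Bulk RNA-seq of ribosomal RNA-depleted prostate tumor tissue was available for 3 castrated and 2 intact mice, each a separate library. All of these mice carried the same alleles, named hHGFtg-hMETtg-BCAT-PBCre in the sample labels and TripleTg by the study. The alleles were a human HGF transgene expressed throughout the body, and a human MET transgene and a β-catenin allele lacking exon 3, both switched on by Cre under the probasin promoter. Probasin is active in prostate epithelium and depends on androgens. The castrated mice lost their testes at 4 months, tissue of both groups was taken at 8 months, and the genetic background was a mixture of C57BL/6 and C3H SCID. The library totals were 28015507, 18951782 and 20492061 reads counted in genes for castrated replicates 1, 2 and 3, and 21560355 and 22853501 for intact replicates 1 and 2. The human transgenes had no row of their own, so the values of Hgf and Met below are those of the mouse rows, and how many transgene reads they took in was not tested.

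HGF is made by stromal cells as an inactive single chain. Serine proteases at the epithelial surface or from plasma cut it into the form that activates the receptor tyrosine kinase MET on epithelial cells. HGFAC (HGF activator), matriptase (encoded by St14) and hepsin (Hpn) are the most efficient of these proteases, and urokinase (Plau), held at the cell surface by its receptor (Plaur), has also been assigned this role. SPINT1 and SPINT2 are Kunitz-type inhibitors in the epithelial membrane that block HGFAC, matriptase and hepsin. MST1R (RON), the second receptor of the family, binds macrophage-stimulating protein, an HGF relative encoded by Mst1.

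Before any comparison, single libraries stood apart by cell type markers. Castrated replicate 3 held hepatocyte messages. Alb, encoding albumin, reached 13842 CPM in it (counts in each 1000000, with library sizes scaled by edgeR's TMM factors), against 48.6 and 1.93 in the remaining castrated libraries and 11.6 and 0.697 in the intact ones. The 5 hepatocyte markers summed to 18168 CPM in castrated replicate 3, and to between 2.20 and 55.3 CPM in the other libraries. Fgb, a fibrinogen chain, was at 2058 CPM in castrated replicate 3 and at 0 in castrated replicate 2. Of these markers 4 were tested and all 4 were higher in the castrated group. Castrated replicates 2 and 3 held adipocyte messages, with the 6 adipocyte markers at 486 and 419 CPM in sum, against 51.7 CPM in castrated replicate 1 and 35.8 and 90.5 CPM in the intact libraries. Intact replicate 2 was the library with messages of the labelled tissue, prostate secretion. Tgm4, a transglutaminase of prostate secretion, stood at 1347 CPM in intact replicate 2 and at no more than 0.419 CPM elsewhere. Pbsn, the gene whose promoter drives Cre here, stood at 5.21 CPM in it and at no more than 0.454 CPM elsewhere. Msmb, encoding a protein of prostate secretion, was at 0 in every library, so in intact replicate 1 and in the castrated libraries these 3 defining markers of the labelled tissue were near absent. Epithelial keratin was present throughout, with Krt8 between 661 and 1155 CPM. The keratins Krt5 and Krt14 set the intact libraries apart. Krt5 was at 28.9 and 405 CPM in intact replicates 1 and 2, and Krt14 at 14.3 and 139 CPM, with the castrated libraries between them for both genes. The range of each fold change of the 10 genes with 1 library left out is therefore plotted beside it.

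Levels were compared between genes as TPM (transcripts in each 1000000), a scale that divides by gene length. The inhibitor Spint2 was the most abundant of the 10, with a mean of 557 TPM over the 5 libraries, and stood above every value of the next gene. Spint1 (189 TPM) and St14 (181 TPM) followed, with Spint1 above St14 in all 5 libraries. Plau averaged 128 TPM, Plaur 88.0, Met 74.7, Hgf 65.2 and Hpn 61.7 TPM, and the ranges of neighbors in this order overlapped. Hgfac (9.66 TPM) and Mst1r (5.32 TPM) were lowest, each below every value of Hpn.

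**Figure D1:**
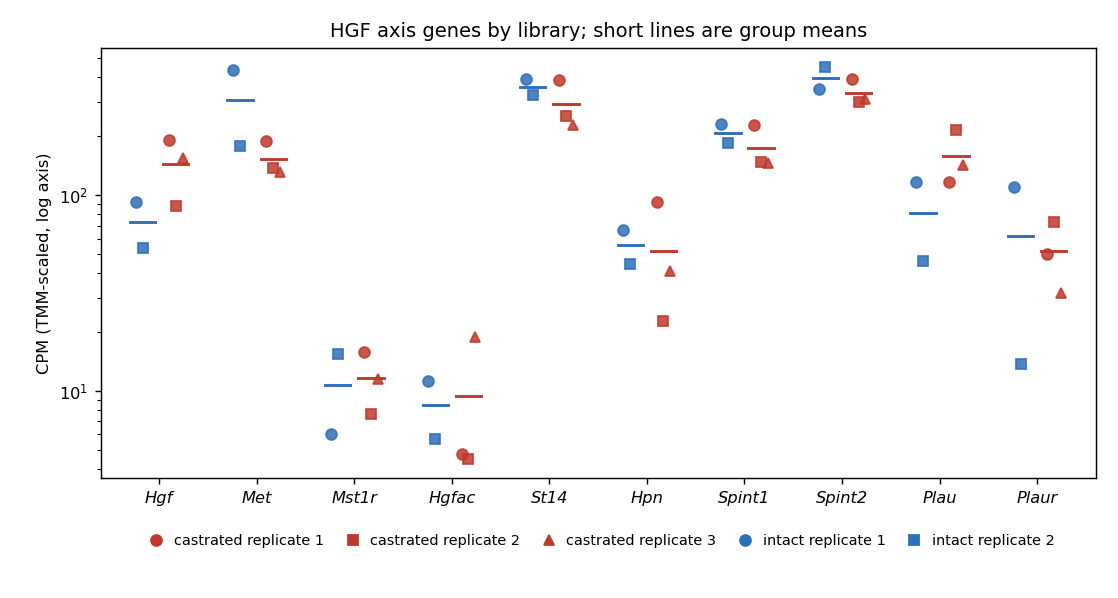
CPM of each gene in each library, on a log axis, with castrated libraries in red, intact libraries in blue and a short line at each group mean. Points of the groups interleave for all 10 genes, and the spread between the 2 intact libraries is widest for Plaur, at 7.94 times.

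Castrated and intact libraries were compared with edgeR's quasi-likelihood test over the genes that reached a CPM above 1 in 2 or more libraries, which asks whether androgen withdrawal moved these messages. All 10 genes had a CPM above 1 in every library and were tested. Of the 10, 0 had an adjusted p under 0.05 with an absolute log2 fold change above 1, as did 0% of the 14612 genes tested (edgeR, Benjamini-Hochberg). With DESeq2 in its place 0 of the 10 passed, against 6.77% of all genes. Without adjustment, 0 of the 10 reached p under 0.05 together with that fold in edgeR, against 10.9% of all genes tested (7.66% higher and 3.26% lower in castrated libraries). That count depended on single libraries. It was 3 without intact replicate 1 (Hgf, Plau and Plaur, against 17.8% of all genes), 1 without intact replicate 2 (Met, 10.3%), 1 without castrated replicate 2 (Hgf, 6.22%), and 0 without castrated replicate 1 (13.5%) or 3 (6.09%). Without either intact library the intact group is a lone sample, and the spread then comes from the castrated libraries, with the lone sample assumed to vary as they do. With DESeq2's unadjusted p it was 1 (Met, 14.2%), and with libraries scaled to the epithelial markers it was 2 (Hgf and Plau, 14.3%). In 0 of the 10 did the castrated and intact values separate without overlap, where 33.1% of all genes did (17.0% with castrated and 16.1% with intact libraries on top). For 8 of the 10 genes, 2 of the 3 castrated libraries lay beyond both intact libraries on the same side and the other did not, a pattern that 28.1% of all genes tested had. Leaving out castrated replicate 1 left 6 of the 10 without overlap, where 49.6% of all genes then separated, and leaving out castrated replicate 2 or 3 left 1 (39.8% and 38.0% of all genes). Leaving out intact replicate 1 or 2 left 4 and 5 (72.1% and 66.8%). With libraries scaled to the epithelial markers 2 of the 10 separated, Hgf and Plau, against 27.9% of all genes. The median log2 fold change was -0.18 over the 10 genes and -0.03 over all genes, with 4 of the 10 above 0 (47.9% of all genes) and 6 below 0 (52.1%). Under the epithelial scaling 3 were below 0, as were 32.5% of all genes.

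Hgf, the ligand (NM_001289459.1, mm10 chr5:16553495-16619439, plus strand), stood at 191, 87.7 and 156 CPM in castrated replicates 1, 2 and 3 and at 92.8 and 53.8 CPM in intact replicates 1 and 2. Castrated replicate 2 fell just under intact replicate 1, and the other 2 castrated libraries were above both intact ones. The means were 145 ± 52.6 CPM (SD, n = 3) in castrated and 73.3 ± 27.6 CPM (SD, n = 2) in intact libraries. The difference was 0.98 on the log2 scale with a standard error of 0.42 and an adjusted p of 0.354 in edgeR, and did not pass the threshold with 3 and 2 mice. It stayed above 0 when each library was left out in turn, between 0.60 without intact replicate 2 and 1.45 without intact replicate 1.

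Met, the receptor (NM_008591.1, mm10 chr6:17463957-17573980, plus strand), ran the other way, with 189, 138 and 131 CPM in castrated replicates 1, 2 and 3 against 434 and 178 CPM in intact replicates 1 and 2. Intact replicate 1 was far above all others, while castrated replicate 1 exceeded intact replicate 2. The means were 152 ± 31.6 CPM (SD, n = 3) and 306 ± 181 CPM (SD, n = 2), a difference of -1.01 on the log2 scale with a standard error of 0.41 and an adjusted p of 0.344 in edgeR. Without intact replicate 1 it was -0.20, and without intact replicate 2 it was -1.55.

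Because Hgf was higher and Met lower, their ratio was taken within each library, where library scaling cancels. Counts of Hgf per kilobase were 1.63, 1.02 and 1.91 times those of Met in castrated replicates 1, 2 and 3, against 0.343 and 0.485 times in the intact pair. Every castrated library held at least as many counts per kilobase in the mouse Hgf row as in the mouse Met row. Both intact libraries held fewer in Hgf than in Met. The human HGF and MET transgenes have no row, so the ratio does not give total ligand to receptor message. The castrated minus intact difference in log2 ratio was 1.85, with group means of 0.56 ± 0.47 (SD, n = 3) and -1.29 ± 0.35 (SD, n = 2). An exact two-sided permutation test over the 5 samples gave p = 0.1, the smallest that 3 against 2 samples allow, and p = 0.3 after adjustment over the 6 ratios examined. The difference was between 1.6 and 2.11 when each library was left out. This ratio was chosen with the direction of both genes known, so its separation is a description.

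Met was also set against Epcam, an adhesion molecule of epithelial cells. The ratio of Met to Epcam per kilobase was 0.0793, 0.0585 and 0.0636 in castrated replicates 1, 2 and 3, against 0.101 and 0.108 in the intact pair. The latter, far apart in Met itself, nearly coincided in this ratio, and all castrated libraries lay below both. This was not so for every epithelial marker. Set against each of the 9 in turn, a check chosen after seeing the data, Met separated in the same way for 4 (Epcam, Krt8, Krt18 and Cldn7), and the groups overlapped for 5, Cdh1, Krt19 and Cldn4 among them, and for the sum of all 9. The log2 difference for Epcam was -0.65 (exact two-sided permutation p = 0.1, adjusted p = 0.3), and it ranged from -0.78 to -0.56 with each library left out. Epcam alone stood at 736, 729 and 637 CPM in castrated and at 1325 and 511 CPM in intact libraries, and its groups overlapped.

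**Figure D2:**
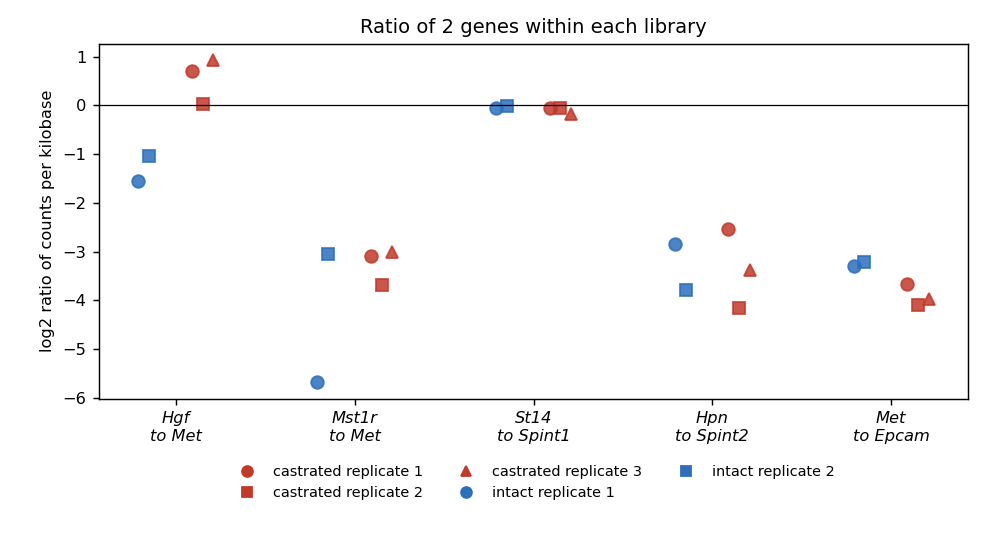
Log2 ratio of counts per kilobase of paired genes in each library, castrated in red and intact in blue. Hgf to Met lies at or above 0 in castrated and below -1 in intact libraries, Met to Epcam separates in the opposite direction, and St14 to Spint1 stays within a log2 range of 0.16.

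The sequences upstream of both start sites are shown because Hgf and Met had the highest and the lowest fold change of the 10 genes. The 250 bases before each row's start were read from RefSeq promoters on GRCm38.p6 (chr5:16553245-16553494 for Hgf, chr6:17463707-17463956 for Met, both on the plus strand). Capitals mark matches to the GC box GGGCGG, and the androgen receptor half-site AGAACA and the TCF/LEF letters ATCAAAG were searched on both strands as well.
Hgf: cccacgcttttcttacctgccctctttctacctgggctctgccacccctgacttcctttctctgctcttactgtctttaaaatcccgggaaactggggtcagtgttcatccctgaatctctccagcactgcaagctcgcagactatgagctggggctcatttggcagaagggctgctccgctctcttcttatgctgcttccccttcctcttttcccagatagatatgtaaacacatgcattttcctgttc
Met: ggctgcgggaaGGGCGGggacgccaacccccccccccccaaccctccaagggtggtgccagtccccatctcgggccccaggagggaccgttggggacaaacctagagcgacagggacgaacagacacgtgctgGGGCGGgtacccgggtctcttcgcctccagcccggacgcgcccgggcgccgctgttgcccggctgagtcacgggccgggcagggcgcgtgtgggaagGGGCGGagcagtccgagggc
The Hgf window held 0 matches to any of the 3 motifs and had a GC content of 50.8%. The Met window held 3 GC boxes, none of which overlapped, 239, 117 and 20 bases before the start, and had a GC content of 74.0%. Of 32851 RefSeq promoter windows of this length, 32.7% held the GC box, 16.1% the half-site and 3.21% the TCF/LEF letters. Among the 8 genes with a promoter sequence, the half-site occurred in the window at the row's start for Hgfac only and the TCF/LEF letters for Mst1r only.

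Bulk tissue cannot tell a lower share of a cell type from less RNA per cell, and markers of the cells that make ligand and receptor differed between libraries as well. The 7 fibroblast markers summed to 3357, 4614 and 6305 CPM in castrated replicates 1, 2 and 3 and to 3041 and 1719 CPM in intact replicates 1 and 2. Of these, 6 were higher and 1 lower in castrated libraries, with Dcn, a matrix proteoglycan and the most abundant, 2.35 higher on the log2 scale with an adjusted p of 0.296 in edgeR. The 9 epithelial markers summed to 4307, 3957 and 4887 CPM in castrated and to 6287 and 4418 CPM in intact libraries, with 8 lower and 1 higher. The part of these cell types in the Hgf and Met differences was not tested.

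The genes whose log2 CPM, centered on its mean, ran closest to Hgf over the 5 libraries were Ak5, Tmem100, Mypop, Klhl33 and Zc4h2, with a root mean square difference between 0.079 and 0.13. Closest to Met were Cldn4, Klk8, Ppp1r9a, Fam98c and F2rl1, between 0.11 and 0.14. The latter 5, like Met, were all highest in intact replicate 1. Cldn4 encodes an epithelial tight junction claudin and F2rl1 a receptor that serine proteases activate. Whether any of these genes shares a role with Hgf or Met was not tested.

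Mst1r, the second receptor (chr9:107906889-107920383, plus strand), stood at 15.9, 7.67 and 11.5 CPM in castrated replicates 1, 2 and 3 and at 6.0 and 15.4 CPM in intact replicates 1 and 2. The intact libraries spanned nearly the whole range, in the order opposite to Met. The log2 fold change was 0.13 (standard error 0.54), and it reversed to -0.38 without intact replicate 1. Met exceeded Mst1r per kilobase in every library, with Mst1r between 0.0195 and 0.124 times Met.

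St14 and the membrane inhibitors had the smallest standard errors of the 10 genes. St14 (matriptase, mm10 chr9:31088590-31131799, minus strand) was at 390, 254 and 229 CPM in castrated replicates 1, 2 and 3 and at 393 and 324 CPM in intact replicates 1 and 2. Spint1, its cognate inhibitor (chr2:119237360-119249513, plus strand), followed the same order, with 228, 148 and 147 CPM in castrated and 232 and 185 CPM in intact libraries. Per kilobase, St14 was 0.969, 0.969 and 0.885 times Spint1 in castrated and 0.958 and 0.991 times in intact libraries. Protease and inhibitor messages thus stayed near parity in every mouse, and the log2 difference between groups was -0.05 (exact two-sided permutation p = 0.6, adjusted p = 0.9). Spint2, the other membrane inhibitor (chr7:29256330-29281977, minus strand), was at 391, 301 and 312 CPM in castrated and 348 and 450 CPM in intact libraries. The log2 fold changes of St14, Spint1 and Spint2 lay between -0.30 and -0.25 with standard errors from 0.24 to 0.30. With 1 library left out they ran from -0.57 without castrated replicate 1 to -0.13 without intact replicate 1 for St14, and from -0.50 to -0.065 without the same libraries for Spint1. For Spint2 they ran from -0.41 without intact replicate 1 to -0.10 without intact replicate 2. With libraries scaled to the epithelial markers they were -0.014 for St14, -0.033 for Spint2 and 0.027 for Spint1. In each of the 3, castrated replicates 2 and 3 were below both intact libraries and castrated replicate 1 was not.

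Hpn (hepsin, chr7:31098725-31115326, minus strand), which is also made by hepatocytes, varied more, at 92, 22.9 and 41.1 CPM in castrated and 66.8 and 44.7 CPM in intact libraries. Its castrated values alone spanned 4.02 times and enclosed both intact values. The log2 fold change was -0.10 (standard error 0.60). With 1 library left out it ran from -0.80 without castrated replicate 1 to 0.26 without castrated replicate 2. The ratio of Hpn to Spint2 per kilobase ran from 0.0558 to 0.172 over the 5 libraries, with a log2 difference between groups of -0.05 (exact two-sided permutation p = 0.9). That difference was -0.53 without intact replicate 2 and 0.42 without intact replicate 1.

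Hgfac, a plasma protease made mainly in liver (chr5:35041509-35048461, plus strand), was at 4.78, 4.5 and 18.9 CPM in castrated replicates 1, 2 and 3 and at 11.3 and 5.72 CPM in intact replicates 1 and 2. Its highest value was in the library with the hepatocyte messages, and the other castrated libraries were the lowest of all. The log2 fold change was 0.14 (standard error 0.78) with all libraries and -0.87 without castrated replicate 3, and the part of hepatocyte RNA in it was not tested.

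Other liver-made members of the activation cascade, named after their values were seen, followed castrated replicate 3 far more steeply. Plg, encoding plasminogen, was at 301 CPM in castrated replicate 3 and at no more than 0.174 CPM in the others. F2 (prothrombin), whose protein thrombin can activate HGFAC, was at 197 CPM against at most 1.18, and F12 (coagulation factor XII) at 48.3 CPM against at most 0.140. Mst1, the ligand of MST1R, was at 14.6 CPM in castrated replicate 3 and at 1.49 CPM or less elsewhere. Serpinf2, the plasmin inhibitor, was at 132 CPM in it and at 0.224 CPM or less elsewhere. Plg, F11, F12, Klkb1 and Serpinf2 did not pass the filter on CPM, since only castrated replicate 3 was above 1. All of these were high in the library that was high in Alb, and the source of its hepatocyte RNA was not tested.

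**Figure D3:**
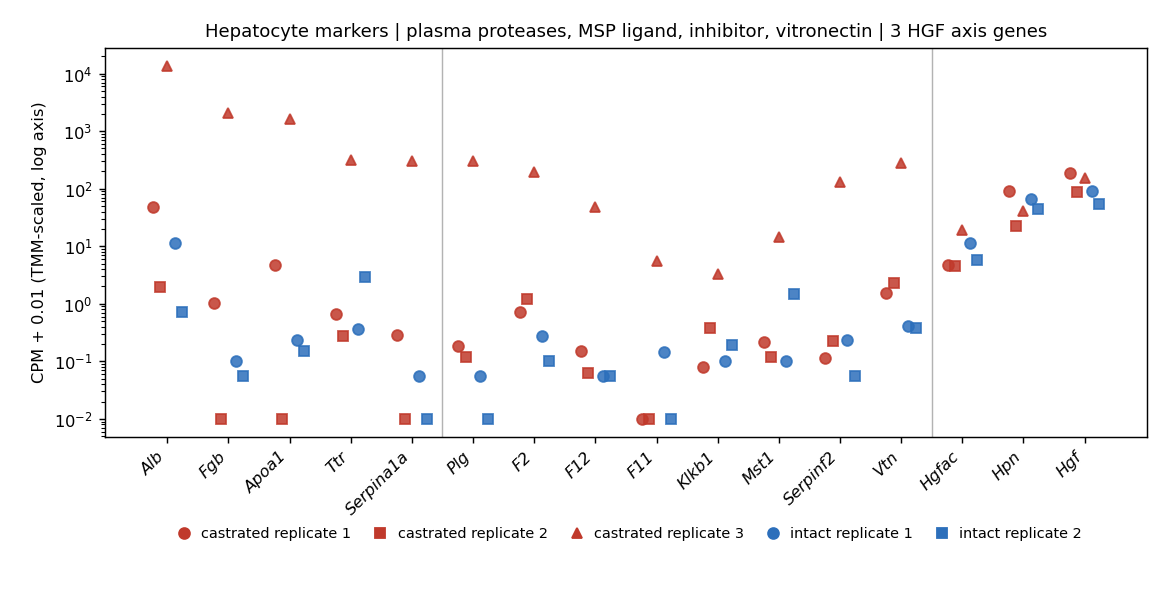
CPM plus 0.01 on a log axis for 5 hepatocyte markers, 8 plasma protein genes of the activation cascade and 3 of the HGF genes, with each library at its own mark and castrated in red. Castrated replicate 3 (triangles) is the highest library for every hepatocyte marker and plasma gene, while Hpn and Hgf in it lie among the other libraries.

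The urokinase pair differed widely between the intact mice. Plau, the urokinase gene (chr14:20836662-20843388, plus strand), was at 117, 215 and 144 CPM in castrated replicates 1, 2 and 3 and at 117 and 46.0 CPM in intact replicates 1 and 2. Castrated replicate 1 and intact replicate 1 were level, and the other castrated libraries were above both intact ones. The difference was 0.96 on the log2 scale with a standard error of 0.48 and an adjusted p of 0.405 in edgeR, and it ran from 0.39 without intact replicate 2 to 1.80 without intact replicate 1. Plaur, the urokinase receptor (chr7:24462483-24475968, plus strand), was at 49.9, 73.3 and 31.9 CPM in castrated and at 110 and 13.8 CPM in intact libraries. The intact libraries enclosed all castrated ones. Its log2 fold change was -0.26 (standard error 0.84), and it was 1.92 without intact replicate 1 and -1.13 without intact replicate 2.

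Intact replicate 1 was at least 1.5 times intact replicate 2 for 5 of the 10 genes (Hgf, Met, Hgfac, Plau and Plaur), against 23.8% of all genes tested. These intact libraries also differed in the secretory genes Tgm4 and Pbsn, as given above, and whether the differences belong together was not tested. Among castrated libraries, replicate 1 was the highest for 7 of the 10, as it was for 38.9% of all genes tested.

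**Figure D4:**
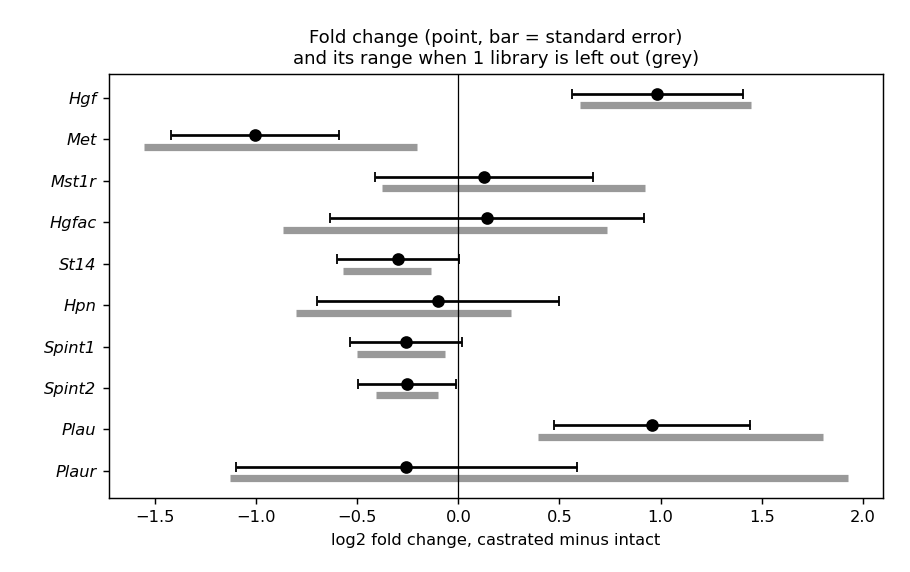
Log2 fold change of each gene, castrated minus intact, with its standard error from edgeR's quasi-likelihood test (black), and the range of the estimate when 1 library is left out (grey). The grey ranges of Mst1r, Hgfac, Hpn and Plaur cross 0, and those of Hgf and Plau stay above it.

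Other genes of the axis were read from 5 lists, of which 68 genes were tested. With edgeR's quasi-likelihood test 0 of these passed the adjusted threshold and 7 had an unadjusted p under 0.05. The likelihood ratio test called 0, against 2.53% of all genes, and DESeq2 called 2, against 6.77% of all genes. Those called by DESeq2 were Serping1 (adjusted p = 0.0202) and Nrp1 (adjusted p = 0.0307), both higher in castrated libraries. Fold changes in this paragraph are log2, castrated minus intact, from edgeR. Without a fold threshold or adjustment, 8.74% of all genes tested were higher and 6.28% lower in castrated libraries at p under 0.05, and 0 of the 10 HGF genes were among them. Of the 13 further proteases with Mst1, 9 were tested, 4 were higher and 5 lower, and 1 passed the unadjusted p. That was Tmprss2, an androgen-regulated membrane protease, at -0.57 (standard error 0.22) and lower in 3 of 3 castrated libraries. Plat, tissue plasminogen activator, was the most abundant at 949 TPM, with 1406, 567 and 420 CPM in castrated and 2349 and 345 CPM in intact libraries. Of the 9 further inhibitors, 5 were tested, 3 were higher and 2 lower. Serping1, encoding the C1 inhibitor, was at 1.59 (standard error 0.44) and higher in 3 of 3, and Serpinb2, an intracellular urokinase inhibitor at 2.23 CPM or less, was at -1.63 and lower in 3 of 3. Serpina5, Spint3 and Spint4 were at 0 in every library, and the smallest adjusted p of this list was 0.29 from edgeR.

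All 25 adaptors and effectors of MET were tested, with 12 higher, 13 lower and 0 past the unadjusted p. Their log2 fold changes ran from -0.55 to 1.14 around a median of -0.05, and Rac1, a GTPase of cell motility, was the most abundant at 411 TPM. Of the 11 coreceptors and binding partners, 5 were higher and 6 lower, with 2 and 1 past the unadjusted p. Nrp1, a coreceptor that binds HGF, stood at 59.0, 109 and 98 CPM in castrated and 42.1 and 28.5 CPM in intact libraries, a difference of 1.33 on the log2 scale with a standard error of 0.35 and an adjusted p of 0.29 in edgeR. Itga6, an integrin of the basement membrane, stood at 324, 270 and 192 CPM in castrated and 373 and 798 CPM in intact libraries, a log2 fold change of -1.16 (standard error 0.41) that was -0.55 without intact replicate 2 and -1.59 without intact replicate 1. Vtn, encoding the plasma protein vitronectin, had a log2 fold change of 7.92 that rested on castrated replicate 3, at 282 CPM against 1.5 and 2.25 CPM in the other castrated libraries. Without that library it was 2.26. Sdc1, a heparan sulfate proteoglycan, was the most abundant partner at 555 TPM. Of the 18 negative regulators and sheddases, 11 were higher and 7 lower, and 1 passed the unadjusted p. Spry2, a feedback inhibitor of receptor tyrosine kinases, was at 0.64 (standard error 0.24) and higher in 3 of 3 castrated libraries. Adam10, a sheddase, was the most abundant at 216 TPM.

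Markers of the remaining cell types completed the account of the tissue. In castrated libraries 6 of 6 smooth muscle genes were higher, with Acta2 at 162, 303 and 221 CPM against 77.1 and 57.5 CPM in intact libraries. All 7 macrophage genes were higher, led in level by Cd68 at 96.8, 638 and 269 CPM against 53.3 and 63.0 CPM. All 6 adipocyte genes were higher in the castrated group, with Fabp4 the most abundant at 37.0, 287 and 193 CPM against 26.0 and 52.0 CPM. Of the 6 neutrophil genes 5 were higher, with S100a9 between 23.3 and 71.3 CPM. The 4 T cell genes tested were higher, and Cd3g, the most abundant, did not exceed 11.7 CPM. Of the 5 endothelial genes 4 were higher and 1, Cdh5, was lower. The 4 tested genes of keratinizing epithelium had log2 fold changes below 0, with Krt6a between 14.3 and 45.1 CPM. Only Lor was lower in every castrated library than in both intact ones. Krt10 stood at 2.29 and 11.9 CPM, and Krt1 at 0.134 and 14.3 CPM, in intact replicates 1 and 2. For both, every castrated library lay between these values, so their falls rested on intact replicate 2. Of the 59 cell type markers tested in all, 0 passed the adjusted threshold with edgeR's quasi-likelihood test, where 25 had an unadjusted p under 0.05 (8.74% of all genes higher and 6.28% lower). DESeq2 called 19 (6.77% of all genes), of which 17 were higher in castrated libraries, Dcn, Acta2 and Cd68 among them. The likelihood ratio test called 11, all higher (2.53% of all genes). Their part in the values of the HGF genes was not tested.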

How the data were processed

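Prostate tumors of 3 castrated and 2 intact mice, grouped by their labels, were profiled by RNA-seq. Per the submitters' processing notes and the methods, the authors used Trimmomatic 0.39 for trimming, STAR 2.7.9 for alignment to mm10 and HTSeq 2.0.2 for counting, and the deposited values are raw counts. Whether counting used the strand was not given in the sources used here. The deposited gene length served for TPM and ratios. The software was edgeR 4.0.16, limma 3.58.1 and DESeq2 1.42.0 under R 4.3.3. A gene was tested if its CPM exceeded 1 in 2 or more libraries, with edgeR's quasi-likelihood F statistic on TMM-scaled counts and Benjamini-Hochberg adjustment over 14612 genes. Each standard error is the size of the fold change (log2) over the root of F. Ratios used a pseudocount of 0.5 counts and exact permutation over samples, adjusted over 6 ratios. 1 of these ratios and some marker and pathway genes are not reported here. No pair within a group was the same library, with a chi-square per gene of 116 or more. The procedures were tested on simulated data.

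The genes and lists were chosen with earlier results of these data known. All 10 genes were named. Of each pathway list, up to 3 genes per direction with an unadjusted p under 0.05, the genes of a ratio and the most abundant by TPM were named, and of each cell type list the most abundant by CPM. Tgm4, Pbsn, Msmb, Fgb, Lor, Krt1, Krt10 and the plasma protein genes were chosen after their values were seen. The 5 genes most like Hgf and Met were taken by the smallest root mean square difference. Alternatives were other tests, scalings and filters, the replicate number as a block, and leaving out each replicate.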

Additional observations from a re-analysis of the deposited data

How the results depend on the processing

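The number of genes called was 0 with edgeR's quasi-likelihood test under every scaling and filter run, against 1596 at an unadjusted p under 0.05 with an absolute log2 fold change above 1, and it was 989 with DESeq2 (703 higher and 286 lower in castrated libraries), 369 with edgeR's likelihood ratio test (276 and 93) and from 0 to 1 with 1 replicate left out. Under all of these, 0 of the 10 HGF genes were called. The unadjusted count at that fold was 975 with the replicate block, and from 867 to 2570 with 1 replicate left out. Same-numbered castrated and intact samples are different mice and are not stated to share a litter or day. The correlation across genes of their deviations was 0.138 for replicate 1 and -0.046 for replicate 2. Under the replicate block Hgfac reversed to -0.80 and Plaur to 0.63, and with limma voom to -0.16 and 0.31. Scaling to the epithelial markers shifted the median of all genes by 0.249 and raised the share of higher genes among those past the unadjusted p and the fold from 70.2% to 86.3%. Under it Hpn reversed to 0.19, Spint1 to 0.027 and Plaur to 0.25, 3 of the 10 genes had a log2 fold change below 0 in place of 6 (32.5% of all genes in place of 52.1%), and 2 separated without overlap in place of 0 (27.9% in place of 33.1%). The causes were not tested. The older quasi-likelihood fit, chosen after seeing the data, called 0 genes. Of 140 fold changes of the 10 genes under alternatives, 16 reversed and 124 kept their direction and stayed uncalled, with Hgf, Met, St14, Spint2 and Plau never reversed.

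With 1 replicate left out, from 1 to 6 of the 10 genes separated without overlap. The 6 came without castrated replicate 1, where 49.6% of all genes separated, and the 1 without castrated replicate 2 (39.8%) or castrated replicate 3 (38.0%). Log2 fold changes below 0 then numbered from 5 to 7. They ranged from -0.38 to 0.92 for Mst1r, from -0.87 to 0.73 for Hgfac, from -0.80 to 0.26 for Hpn and from -1.13 to 1.92 for Plaur. Log2 ratio differences ranged from -0.22 to 2.43 for Mst1r to Met and from -0.53 to 0.42 for Hpn to Spint2. A pseudocount of 5 counts reversed 0 of the 5 ratios given. Of the 68 further genes of the axis tested, DESeq2 called 2, against 6.77% of all genes. Those were Serping1 (adjusted p = 0.0202) and Nrp1 (adjusted p = 0.0307), and their adjusted p reached 0.696 and 0.71 at most over all alternatives. The 10 genes held 84 counts or more in every library.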
